A study of Mus musculus with 5 samples.

Results

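The transcripts described here are 42 genes of the DNA replication machinery, chosen by their function under a rule that uses no measured value. The choice was made with earlier results of these data known. All 42 were among the 13911 genes of the table that covers all time points. They were measured in single OT-I CD8+ T cells of the mouse strain C57BL/6-Tg(TcraTcrb)1100Mjb/J, whose transgenic T cell receptor recognises the ovalbumin peptide SIINFEKL, with spleen and lymph nodes as the source tissue; the CD8+ T cells were enriched by flow sorting. Each of the 5 groups was 1 droplet library: cells before stimulation (0 h), cells after 24 h and after 72 h with peptide-loaded dendritic cells (DCs), and cells after the same times with peptide-loaded DCs and, in addition, MDSCs. MDSCs, myeloid-derived suppressor cells, are a mixed population of myeloid cells that can hold back T cell responses. The co-culture libraries are called DC and MDSC libraries here, by what was added last. All groups carry the same receptor transgene, each co-culture held peptide-loaded DCs, and the number of animals or cultures behind a library is not given. With 1 library a group there was no test, and each ratio below compares 2 libraries, with no replicate check.

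Replication starts at origins, which the origin recognition complex (Orc genes), Cdc6 and Cdt1 load with the Mcm2 to Mcm7 helicase in the step called licensing, and which geminin (Gmnn) keeps from being loaded again by binding Cdt1. Cdc45, the GINS complex and Mcm10 then turn the loaded helicase on, primase and the alpha, delta and epsilon polymerases copy the strands, the Pcna clamp is placed by its Rfc loader, and replication protein A, Fen1 and Lig1 protect single strands and join Okazaki fragments. Ribonucleotide reductase (Rrm1, Rrm2), Tyms and Dut supply deoxynucleotides without uracil, and Ung removes uracil that was built in. Ung is grouped below with the nucleotide supply genes, though it supplies none. Resting T cells are known to hold little of this machinery, and stimulated CD8+ T cells are known to divide quickly, with E2F factors driving many of these genes as cells enter S phase.

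To show what the members share in sequence, RefSeq promoter windows (build GRCm38.p6, 250 bases before to 50 after the start of transcription) were searched on both strands for the E2F-type letters TTTGGCGC, TTTCCCGC, TTTGCCGC or TTTCGCGC. None of the 4 contains another, and a gene was counted when any of its windows held a match. No window was matched for Gmnn, Mcm4, Gins1, Gins2, Gins4, Prim2, Pole and Rfc2. Of the 34 members with a window, 13 held one (38.2%), against 2.60% of all 27025 genes with a window and 4.67% of those in the expression table. The matches lay in licensing (3 of 5), helicase (5 of 8) and polymerase genes (3 of 6), with 1 of 5 among clamp and loader genes, 1 of 5 among genes of single-strand binding and fragment joining, and 0 of 5 among nucleotide supply genes. The letters TTTGAA or TTCGAA, a core of the CHR element of genes expressed in G2 and mitosis, were in 7 of 34 members and in 11 of 14 genes of a list of mitosis genes, against 21.7% of all genes with a window and 16.3% of those in the expression table. A match is a description of these letters and not of binding. Shown are the 3 members with a match whose ratio of 24 h with DCs to 0 h was largest, with the matched letters in capitals; the match starts 27 bases before the start in Orc1 and 138 in both Cdc6 and Pola1, in each case on the opposite strand.
Orc1, chr4:108579204-108579503, strand +: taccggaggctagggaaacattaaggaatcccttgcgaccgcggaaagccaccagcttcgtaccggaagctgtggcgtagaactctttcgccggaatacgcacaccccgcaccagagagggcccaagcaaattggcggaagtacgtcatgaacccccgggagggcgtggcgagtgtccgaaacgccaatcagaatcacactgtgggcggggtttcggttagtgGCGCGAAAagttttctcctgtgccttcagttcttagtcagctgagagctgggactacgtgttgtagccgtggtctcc
Cdc6, chr11:98907901-98908200, strand +: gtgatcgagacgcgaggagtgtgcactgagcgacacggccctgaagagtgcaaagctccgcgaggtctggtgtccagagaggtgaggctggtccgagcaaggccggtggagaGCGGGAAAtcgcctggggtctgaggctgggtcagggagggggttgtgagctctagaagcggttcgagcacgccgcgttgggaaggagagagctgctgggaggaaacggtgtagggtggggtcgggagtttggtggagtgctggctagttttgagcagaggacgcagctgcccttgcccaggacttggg
Pola1, chrX:93632106-93632405, strand -: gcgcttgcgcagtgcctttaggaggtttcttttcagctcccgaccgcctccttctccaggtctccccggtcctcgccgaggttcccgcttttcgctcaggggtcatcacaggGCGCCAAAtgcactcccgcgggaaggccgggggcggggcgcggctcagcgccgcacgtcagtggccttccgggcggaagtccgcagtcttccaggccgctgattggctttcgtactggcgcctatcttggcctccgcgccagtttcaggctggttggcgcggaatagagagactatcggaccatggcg

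The 0 h library held 2952 cells, the 24 h DC and MDSC libraries 1562 and 2247, and the 72 h DC and MDSC libraries 1926 and 4942, while 110 barcode sequences occurred in more than 1 library. The deposited values are whole numbers adjusted to a nearly constant total per cell (13061 to 15988) on a natural log scale, so the depth in molecules is unknown. Levels are given as adjusted counts in each 1000000 of the library, written CPM. A cell of the 0 h library had a median of 2210 genes above 0, and the 4 co-culture libraries had medians of 3111 to 3621. All 9 T cell markers (Cd3d, Cd3e, Cd3g, Cd8a, Cd8b1, Cd2, Cd5, Lck, Thy1) were above 0 in each library, with Cd8b1 between 548 and 1871 CPM. Myeloid markers (6 of 8 in the table) summed to 14.2 to 46.1 CPM, mostly Cebpb, and Lyz2, S100a8, S100a9 and Itgam were listed at 0 in the 24 h DC library and at 1.59, 2.29, 1.25 and 0.0580 CPM in the 24 h MDSC library. The 2 measured B cell markers summed to at most 27.5 CPM, the 3 dendritic cell markers to at most 154 (nearly all Cst3), the 2 NK cell markers to 34.4 (nearly all Eomes, which CD8+ T cells also express), the 2 CD4 T cell markers to 5.66 and the 4 erythroid markers to 1.19; their part in the results was not tested. By GENCODE M21 (GRCm38), the members that the comparisons below turn on are the protein-coding genes Rrm2 (chr12:24708241-24714146), Ung (chr5:114130386-114139323), Prim2 (chr1:33453810-33669795), Pole2 (chr12:69201773-69228195), Orc2 (chr1:58462771-58505109), Cdt1 (chr8:122568015-122573554) and Gmnn (chr13:24751845-24761923).

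Most replication genes were higher in stimulated than in resting cells when the 24 h DC library was set against 0 h. The log2 ratio was 2.42 for Fen1, but -0.091 for Rpa1 and -0.009 for Rpa3. That of Cdc45, 5.28, rests on a 0 h level of 0.895 CPM, with 20 of 2952 cells above 0. A member counted as higher or lower when it reached 10 CPM in either library and the levels differed by 1.5-fold or more. Of 41 members at that level 36 were higher at 24 h and 0 lower, but 55% of all genes at that level were higher by the same rule and 15.4% lower. The median log2 ratio of the members was 1.55, against 0.73 for all genes, and with ratios centred on the latter 23 members were higher and 3 lower (Rfc2, Rpa1 and Rpa3), against 31% and 31.2% of all genes. Only Gins3 did not reach 10 CPM, with a log2 ratio of 2.56. By role, the higher members were 6 of 6 licensing genes, 11 of 11 helicase genes and 8 of 8 primase and polymerase genes. They were also 4 of 6 clamp and loader genes, 2 of 5 genes of single-strand binding and fragment joining, and 5 of 5 nucleotide supply genes. From the mean natural log value 31 of 41 members were higher, since Gmnn, Mcm7, Pcna, Lig1 and Rrm2 fell short of 1.5-fold. With ribosomal protein and mitochondrial genes left out of the total, 33 of 42 were higher. Mcm7, Pcna, Lig1 and Rrm2 then fell short, while Gins3 reached 10 CPM and was higher. The full counts for licensing, helicase and nucleotide supply genes thus did not hold by every measure.

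Part of the list had values at 0 h that stood apart from those of the other libraries. In 6 members (Orc6, Gmnn, Mcm3, Mcm5, Lig1, Rrm2) the variance over mean across the 0 h cells was below 0.5, where random counts would give about 1, and no member was that low in any other library. Rrm2 was the clearest case: 95.7% of the 0 h cells had an adjusted count of exactly 1 and the variance over mean was 0.165, against 3.11 at 24 h with DCs. The limit of 0.5 separates no 2 kinds of gene, since Mcm6, Gins2, Dut and Mcm7 lay just above it (0.549, 0.555, 0.563 and 0.579). Scarcer members stood apart in another way: for Orc2 0.203% of the 0 h cells had a count of 1 and 5.45% had 2 or more, and for Cdt1 0.339% and 7.79%. Ratios to 0 h rest on such adjusted values for many members. Without the 6, 30 of 35 members were higher and the median was 2.03.

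The licensing genes Orc1 and Cdc6 were nearly silent before stimulation. Orc1, the largest origin recognition subunit, was above 0 in 1 of 2952 cells at 0 h and in 31.1% of the cells of the 24 h DC library (exact 95% interval 28.8 to 33.4%, counting error only). Orc1 measured 0.0242 CPM at 0 h, 23.7 (DC) and 23.1 (MDSC) at 24 h, and 7.27 (DC) and 6.47 (MDSC) at 72 h. Cdc6, which brings the helicase to origins, was above 0 in 5 cells at 0 h. Cdc6 measured 0.266 CPM at 0 h, 35.7 (DC) and 48.6 (MDSC) at 24 h, and 21.2 (DC) and 19.4 (MDSC) at 72 h. All 4 co-culture libraries lay far above 0 h for both genes, and no fold is given against so few cells. Orc2, another recognition subunit, measured 8.47 CPM at 0 h, 73.3 (DC) and 94.4 (MDSC) at 24 h, and 17.6 (DC) and 22.9 (MDSC) at 72 h. Orc6 measured 68.9 CPM at 0 h, 122 (DC) and 152 (MDSC) at 24 h, and 76.5 (DC) and 94.4 (MDSC) at 72 h. Gmnn, the geminin gene, measured 81.6 CPM at 0 h, 149 (DC) and 203 (MDSC) at 24 h, and 184 (DC) and 192 (MDSC) at 72 h. Orc2, Orc6 and Gmnn were all highest in the 24 h MDSC library. At 72 h Orc2 and Orc6 were nearer their 0 h level, while Gmnn was not.

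All 12 helicase genes were lowest at 0 h. Mcm10, which helps activate the helicase, was above 0 in 3 cells at 0 h and in 54.0% of the cells of the 24 h MDSC library. Mcm10 measured 0.0726 CPM at 0 h, 37.0 (DC) and 52.5 (MDSC) at 24 h, and 19.8 (DC) and 19.2 (MDSC) at 72 h. Cdc45 measured 0.895 CPM at 0 h, 34.8 (DC) and 40.6 (MDSC) at 24 h, and 30.8 (DC) and 34.2 (MDSC) at 72 h. Both were low at 0 h, and Cdc45 held its level from 24 h to 72 h better than Mcm10 did. Mcm2 measured 34.5 CPM at 0 h, 116 (DC) and 126 (MDSC) at 24 h, and 57.7 (DC) and 57.1 (MDSC) at 72 h. Mcm3 measured 82.9 CPM at 0 h, 191 (DC) and 224 (MDSC) at 24 h, and 120.3 (DC) and 107 (MDSC) at 72 h. Mcm6 measured 91.2 CPM at 0 h, 170.3 (DC) and 199 (MDSC) at 24 h, and 154 (DC) and 127 (MDSC) at 72 h. For these 3 ring subunits the 24 h MDSC library was highest, the 24 h DC library next and the 72 h libraries lay below both. The other ring subunits, Mcm4, Mcm5 and Mcm7, had log2 ratios to 0 h of 2.62, 1.14 and 0.62 in the 24 h DC library. The GINS genes, whose complex joins Cdc45 on the helicase, had 3.71 (Gins1), 1.31 (Gins2) and 1.55 (Gins4).

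The 8 primase and polymerase genes had a median log2 ratio of 2.84 between the 24 h DC library and 0 h, and their summed level was 387 against 99.1 CPM. Pole, the catalytic subunit of polymerase epsilon, measured 1.11 CPM at 0 h, 22.1 (DC) and 27.2 (MDSC) at 24 h, and 20.3 (DC) and 19.3 (MDSC) at 72 h. Prim1, the catalytic primase subunit, measured 9.26 CPM at 0 h, 77.6 (DC) and 86.5 (MDSC) at 24 h, and 48.8 (DC) and 61.4 (MDSC) at 72 h. Pold2, an accessory subunit of polymerase delta, measured 62.8 CPM at 0 h, 126 (DC) and 156 (MDSC) at 24 h, and 58.5 (DC) and 65.0 (MDSC) at 72 h. Pole stayed within 1.5-fold of its 24 h level at 72 h, Prim1 was lower at 72 h in the DC library alone, and Pold2 was back near its 0 h level in both.

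Clamp and loader genes had a median log2 ratio to 0 h of 0.90, and genes of single-strand binding and fragment joining one of 0.42, the lowest of the 6 roles. Pcna measured 98.6 CPM at 0 h, 151 (DC) and 169.6 (MDSC) at 24 h, and 130.3 (DC) and 95.5 (MDSC) at 72 h. Rfc2 measured 102 CPM at 0 h, 107 (DC) and 140.3 (MDSC) at 24 h, and 143 (DC) and 145 (MDSC) at 72 h. Rfc5 measured 18.5 CPM at 0 h, 87.3 (DC) and 113 (MDSC) at 24 h, and 60.2 (DC) and 55.4 (MDSC) at 72 h. Of these Rfc5 differed most from 0 h, and Rfc2 in the 24 h DC library was level with it. Rpa2, the middle subunit of replication protein A, measured 73.1 CPM at 0 h, 97.7 (DC) and 121 (MDSC) at 24 h, and 69.9 (DC) and 89.2 (MDSC) at 72 h. Fen1, the flap nuclease of Okazaki fragments, measured 18.9 CPM at 0 h, 101 (DC) and 123 (MDSC) at 24 h, and 51.8 (DC) and 54.2 (MDSC) at 72 h. Lig1, the ligase that seals them, measured 72.6 CPM at 0 h, 117 (DC) and 152 (MDSC) at 24 h, and 169 (DC) and 142 (MDSC) at 72 h. Fen1 was highest at 24 h and Lig1, whose 0 h values had the low scatter given above, was highest in the 72 h DC library. Rpa1 and Rpa3, the other subunits of replication protein A, had log2 ratios to 0 h of -0.091 and -0.009.

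Nucleotide supply genes were all at least 1.5-fold higher in the 24 h DC library than at 0 h, from Rrm2 (0.73 on the log2 scale) to Ung (3.62). For Rrm2 this depended on the measure, since its log2 ratio was 0.014 from the mean natural log value. The share of cells with Rrm2 above 0 was lower at 24 h with DCs, 54.5% against 96.3% at 0 h. Nearly all of the 0 h share was cells at an adjusted count of exactly 1 (95.7%), the values that stood apart above. It is therefore not read as a share of expressing cells. Dut, the dUTPase, measured 206 CPM at 0 h, 550.5 (DC) and 712 (MDSC) at 24 h, and 549 (DC) and 588 (MDSC) at 72 h. Rrm2, the cell cycle regulated subunit of ribonucleotide reductase, measured 70.2 CPM at 0 h, 117 (DC) and 188 (MDSC) at 24 h, and 138 (DC) and 194 (MDSC) at 72 h. Ung, the uracil glycosylase, measured 15.2 CPM at 0 h, 187 (DC) and 194 (MDSC) at 24 h, and 27.4 (DC) and 29.8 (MDSC) at 72 h. Ung was high at 24 h alone, whereas Dut and Rrm2 stayed high at 72 h. Rrm1, the large reductase subunit, and Tyms, thymidylate synthase, had log2 ratios to 0 h of 1.30 and 1.52.

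**Figure D1:**
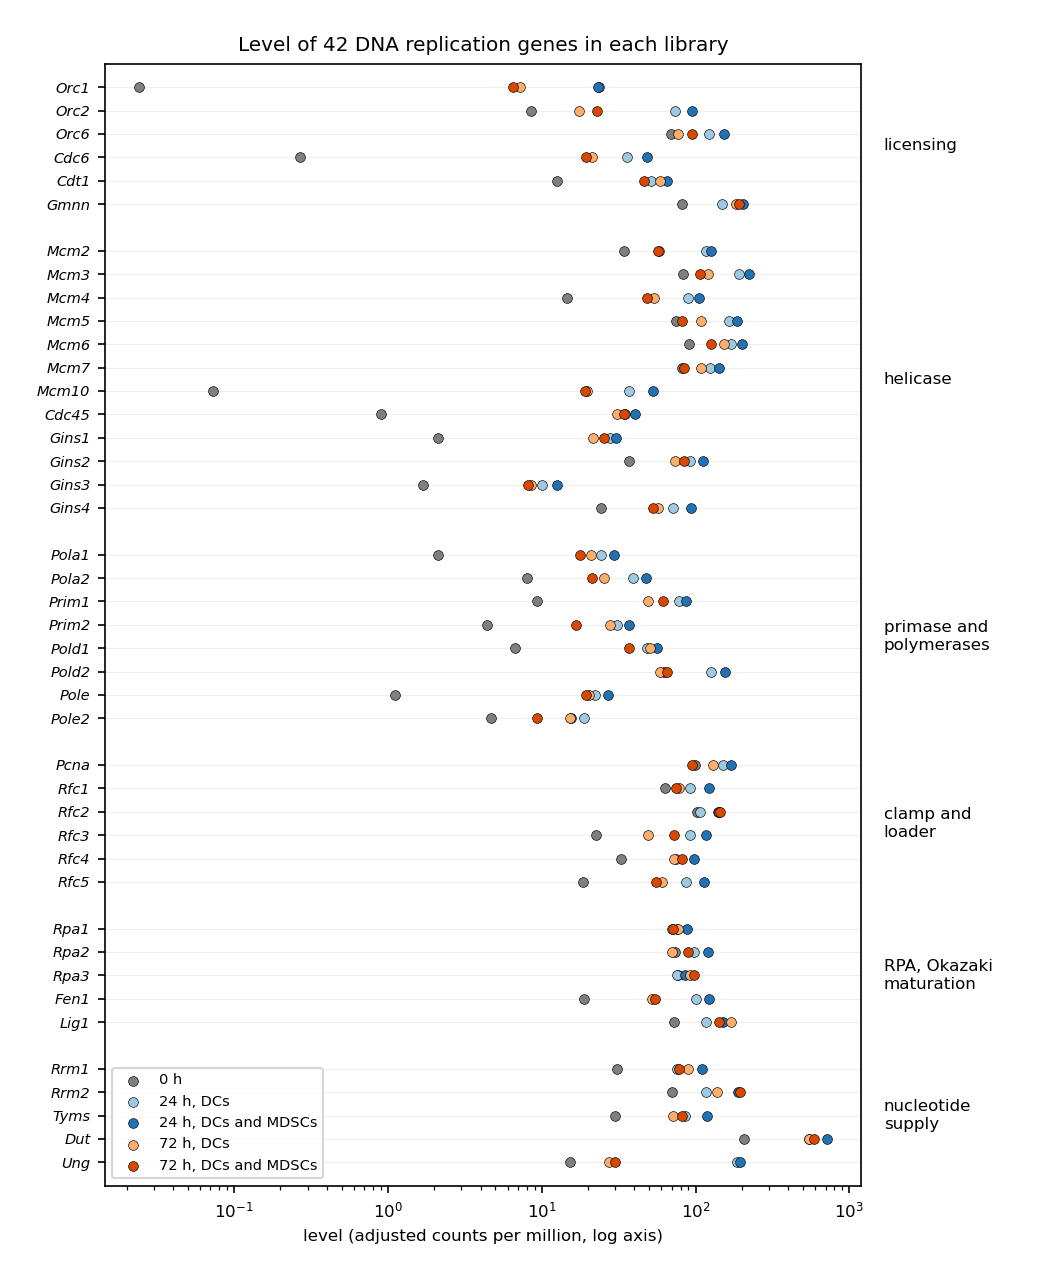
Level of each of the 42 members in each library, in CPM on a log axis, with 1 point per library and members grouped by role. The 0 h points of Orc1, Cdc6, Mcm10 and Cdc45 lie under 1 CPM, and the 24 h points of Ung (187 and 194 CPM) lie apart from those at 72 h.

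From 24 h to 72 h the licensing genes Orc1 and Orc2 and the repair gene Ung were far lower, while Rrm2, Dut and Gmnn stayed close to level. Without MDSCs 15 of 41 members were lower at 72 h and 0 higher, against 34.8% and 23.1% of all genes, a share of lower members near that background. With MDSCs 25 of 42 were lower and 0 higher, against 42% and 16.9% of all genes. The median log2 ratio was -0.30 without MDSCs and -0.69 with them, against -0.23 and -0.41 for all genes. Centred on those medians, 8 members were lower and 2 higher (Lig1 and Rfc2) without MDSCs, where 26.6% and 28.9% of all genes were. With MDSCs the centred counts were 14 lower and 1 higher (Rpa3), where 24.9% and 28% of all genes were. With a reduced total, from which ribosomal protein and mitochondrial genes were left out, 15 members were lower without MDSCs and 19 with them. The medians were then -0.31 and -0.54, against -0.24 and -0.22 for all genes. Ribosomal protein genes took 38.8% and 38.0% of the adjusted counts at 24 h and 72 h without MDSCs, and 33.7% and 39.8% with them. Their part in these counts was not tested.

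In both kinds of co-culture 14 members were at least 1.5-fold lower at 72 h: Orc1, Orc2, Orc6, Cdc6, Mcm2 to Mcm5, Mcm10, Pola2, Pold2, Rfc3, Fen1 and Ung. Of all genes that reached 10 CPM in any co-culture library, 30% were, so the members' share lay near that of all genes. Another 16 were within 1.5-fold in both, among them Cdt1, Gmnn, Cdc45, Lig1, the 3 Rpa genes and 4 of the 5 nucleotide supply genes, against 29.1% of all genes. Ung was the lowest of all members relative to 24 h, with log2 ratios of -2.77 and -2.70, and was above 0 in 83.5% and 86.9% of the cells at 24 h against 25.1% and 28.0% at 72 h. Next came Orc2 (-2.06 and -2.04) and Orc1 (-1.71 and -1.83). Rrm2, at 0.24 and 0.047, and Dut, at -0.0029 and -0.28, were close to their 24 h levels. A further 11 members (Mcm6, Mcm7, Gins3, Gins4, Pola1, Prim2, Pold1, Pole2, Pcna, Rfc1, Rfc5) passed 1.5-fold only with MDSCs and Prim1 only without, against 10.8% and 4.65% of all genes. These classes use the full total, and with the reduced total given above 19 members in all were lower with MDSCs. Whether the courses differ between the co-cultures was not tested.

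By role, the median log2 ratio of 72 h to 24 h without and with MDSCs was -0.71 and -1.01 for licensing genes, -0.36 and -0.79 for helicase genes, and -0.26 and -0.74 for primase and polymerases. It was -0.22 and -0.71 for clamp and loader genes, 0.13 and -0.30 for single-strand binding and fragment joining, and -0.0029 and -0.50 for nucleotide supply. Licensing was the role furthest below its 24 h level in both kinds of co-culture. Mitosis genes lay in the other direction: of 16, 16 were higher at 72 h without MDSCs and 12 with them, with 0 lower in either (against the 23.1% and 16.9% of all genes higher given above), and Ccnb2, a mitotic cyclin, was at 178 against 1.73 CPM and at 140.4 against 7.16.

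**Figure D2:**
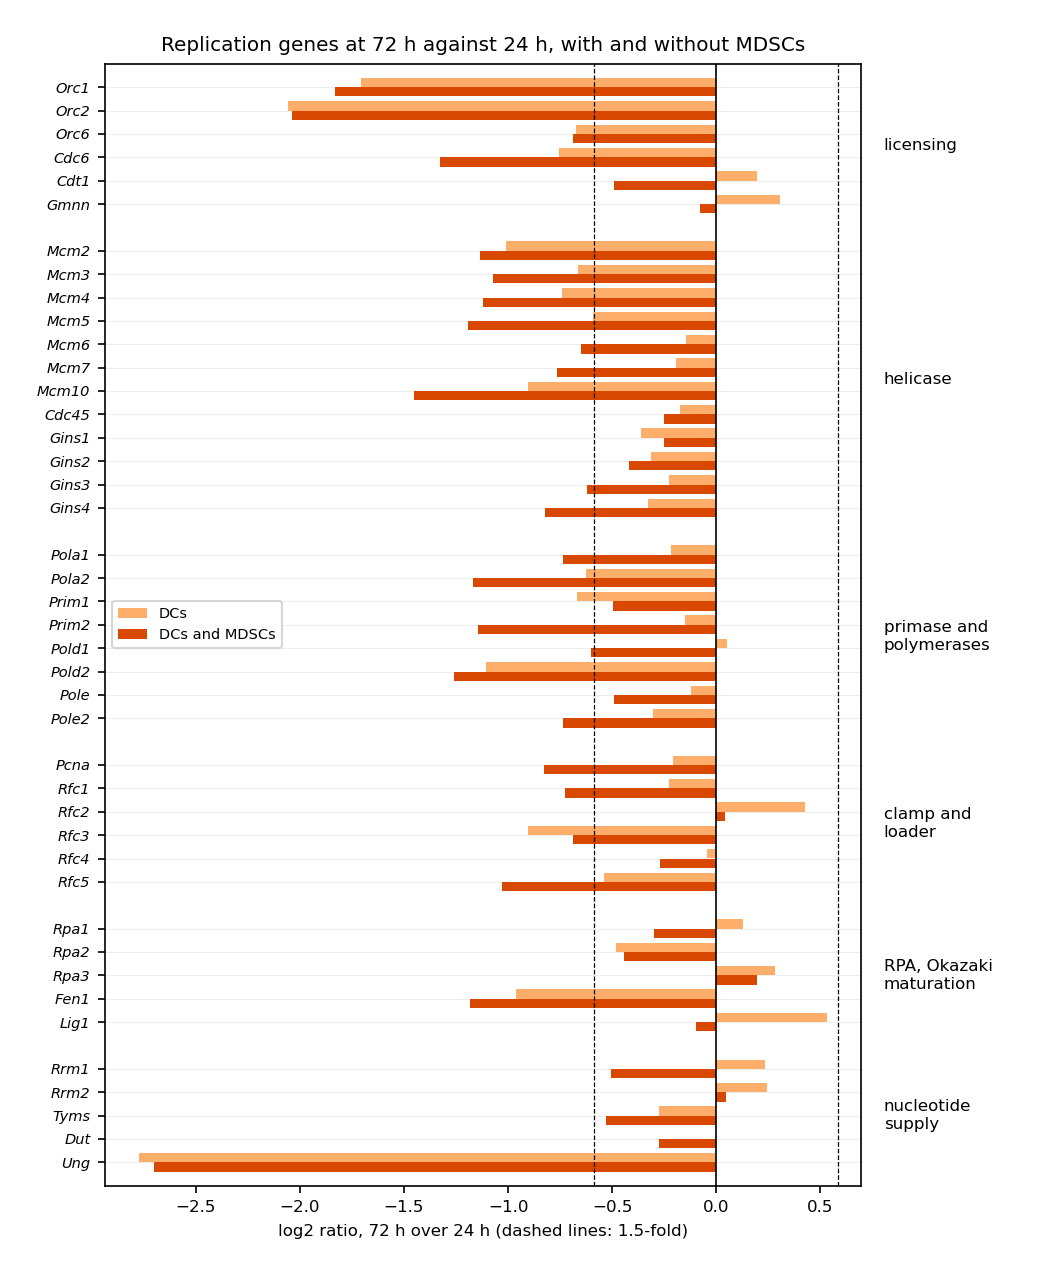
Log2 ratio of the level at 72 h to that at 24 h for each member (bars, 1 library against 1 library), without MDSCs (light) and with them (dark), grouped by role, with dashed lines at 1.5-fold. Ung, Orc1 and Orc2 reach furthest to the left, while Gmnn, Lig1, Rfc2 and Rrm2 lie near or above 0.

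At 24 h the levels of nearly all members were slightly higher in the MDSC than in the DC library, Rrm2 most of all: 40 of 42 had a higher level with MDSCs and 2 (Orc1 and Pole2) a lower one, while 68.6% of all genes at 10 CPM or more were higher. The median log2 ratio was 0.30, against 0.093 for all genes, and 39 of 42 were higher once ribosomal protein and mitochondrial genes were left out of the total (median 0.19). Past 1.5-fold was 1 member, Rrm2, and 0 lay lower, against 2.14% and 1.14% of all genes, so this count is near the background. Rrm2 was at 188 against 117 CPM (log2 ratio 0.69) and was above 0 in 83.0% of the cells (exact 95% interval 81.4 to 84.6%) against 54.5% (52.0 to 57.0%). Its log2 ratio was 1.02 from the mean natural log value and 0.57 with the reduced total, which is short of 1.5-fold. Other larger ratios were those of Rrm1 (0.53), Mcm10 (0.51), Tyms (0.46), Gmnn (0.45) and Cdc6 (0.44). All 5 were short of 1.5-fold. Ribosomal protein genes took 33.7% of the adjusted counts in the MDSC library and 38.8% in the DC library, and the 6 myeloid markers 46.1 and 29.8 CPM; their part in the result was not tested.

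The 24 h libraries differed most in cells with few replication transcripts. The median number of members above 0 per cell was 31 with MDSCs and 29 without, and the upper quartile was 33 in both libraries. The lower quartile was 27 with MDSCs and 22 without, and the 5th percentile 17 and 9.05. The summed adjusted count of the 42 members had quartiles of 65, 80 and 92 with MDSCs and 43, 67 and 85 without. The lower tail was thus longer in the DC library. Cells with 10 or fewer members above 0, a limit set after the values were seen, were 6 of 2247 (0.267%, exact 95% interval 0.0981 to 0.580%) with MDSCs and 88 of 1562 (5.63%, 4.54 to 6.90%) without. The median number of all genes above 0 over the whole libraries was 3621 and 3584. In the 88 cells of the DC library it was 2864.5, against 3609 in the other 1474. Ribosomal protein genes took 48.1% of the adjusted counts of the 88 cells, against 38.2% in the others. The part of detection in this difference was not tested. At 72 h the quartiles of members above 0 were 19, 23 and 27 with MDSCs and 17, 24 and 28 without.

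**Figure D3:**
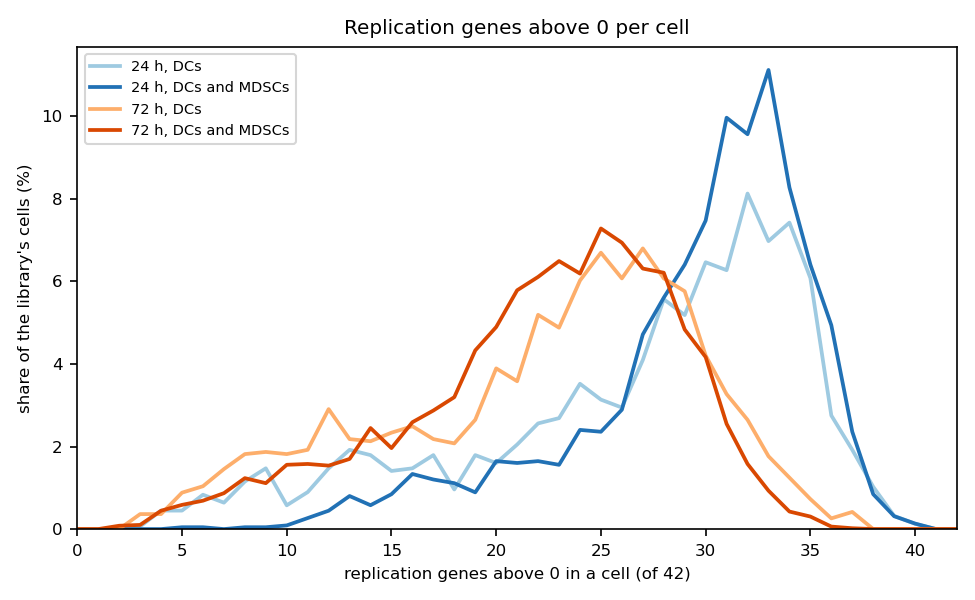
Share of each co-culture library's cells (in percent) by the number of the 42 members above 0 in the cell. The 24 h curves share their right side and differ on the left, and both 72 h curves peak at fewer members, with medians of 24 and 23 against 29 and 31 at 24 h.

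Mki67, a proliferation marker outside the list, was above 0 at 24 h in 46.0% of the cells with MDSCs (exact 95% interval 43.9 to 48.1%) and in 19.0% without (17.1 to 21.1%). Within Mki67-positive cells the 42 members summed to 5488 and 5486 CPM with and without MDSCs, the median log2 ratio was 0.017, and 0 members passed 1.5-fold higher and 0 lower, against 1.29% and 2.04% of all genes. Within cells at 0 for Mki67 the sums were 4606 and 3709.5 CPM, the median was 0.29, 40 of 42 were higher with MDSCs, and Rrm2 alone passed 1.5-fold (138 against 81.7 CPM), against 1.93% of all genes higher and 1.49% lower. The all-gene medians were 0.017 and 0.066. In Mki67-positive cells Rrm2 was at 245 and 264 CPM. A cell can be at 0 for Mki67 because its transcript was not captured, and the median number of all genes above 0 was 3380 and 3479 in these cells with and without MDSCs, against 3786 and 3868 in the positive ones. The part of capture in this result was not tested.

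**Figure D4:**
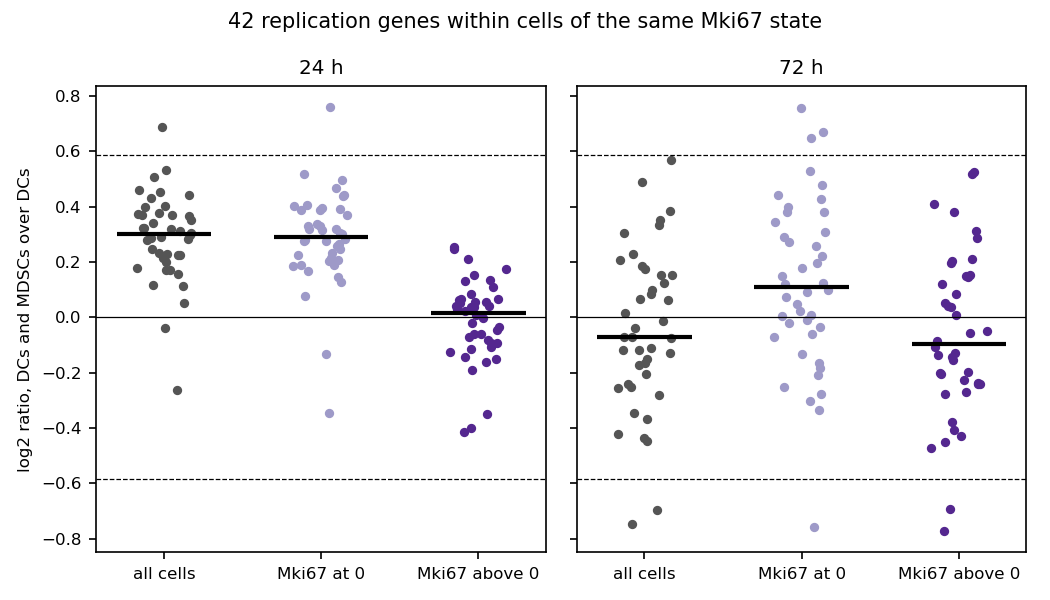
Log2 ratio of the level with MDSCs to that without for each of the 42 members (points), in all cells, in cells at 0 for Mki67 and in cells above 0, at 24 h (left) and 72 h (right), with bars at the median of the 42 and dashed lines at 1.5-fold. At 24 h the points sit above 0 in all cells and in cells at 0 for Mki67, and around 0 in Mki67-positive cells.

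Members also differed in how they tracked Mki67 inside a library. At 24 h with DCs, Rrm2 was at 264 CPM in Mki67-positive cells and 81.7 in the others (log2 ratio 1.69), followed by Tyms (1.28) and Rrm1 (1.08). Mcm2 (-0.043) and Orc1 (0.17) were nearly level between them. Ung was 0.29 in that library but lower in the Mki67-positive cells of the other 3, with -0.39 at 24 h with MDSCs and -0.58 and -0.67 at 72 h without and with them. Mcm2 in both 24 h libraries and Ung in these 3 were the only negative log2 ratios among the 42 members in the 4 co-culture libraries. No share of all genes is given beside this, so it is not known whether the members differ from other genes. Mki67-positive cells had more genes above 0 in each library, for example a median of 3402 against 2663 at 72 h with DCs. The part of detection was not tested.

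At 72 h Prim2 and Pole2 were lower in the MDSC than in the DC library, and the members had no common direction. Of 42 members 18 had a higher level with MDSCs and 24 a lower one, and the median log2 ratio over the 40 at 10 CPM or more was -0.056, against -0.072 for all genes. Past 1.5-fold were 2 members lower and 0 higher, against 14.8% and 8.3% of all genes. Prim2, the large primase subunit, measured 4.43 CPM at 0 h, 31.0 (DC) and 36.8 (MDSC) at 24 h, and 27.9 (DC) and 16.6 (MDSC) at 72 h. It was above 0 in 21.7% of the 72 h cells with MDSCs (exact 95% interval 20.6 to 22.9%) and in 33.1% without (31.0 to 35.2%), and its log2 ratio of -0.75 was -0.69 in Mki67-positive cells and -0.76 in the others. Of Prim1, the other primase subunit, the level was 61.4 against 48.8 CPM (log2 ratio 0.33). Pole2, the second subunit of polymerase epsilon, was the other lower member.

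Pole2 measured 4.69 CPM at 0 h, 18.7 (DC) and 15.6 (MDSC) at 24 h, and 15.2 (DC) and 9.37 (MDSC) at 72 h. It was lower with MDSCs at both times, with log2 ratios of -0.26 and -0.70. At the other end were Rfc3, a clamp loader subunit, and Rrm2. Rfc3 measured 22.4 CPM at 0 h, 92.0 (DC) and 117 (MDSC) at 24 h, and 49.1 (DC) and 72.8 (MDSC) at 72 h. Its log2 ratio at 72 h of 0.57 was just short of 1.5-fold and passed it with the reduced total (0.62) and from the mean natural log value (0.61). Rrm2 had a log2 ratio of 0.49 and was above 0 in 80.9% of the cells with MDSCs (exact 95% interval 79.8 to 82.0%) and in 72.9% without (70.9 to 74.9%). The other reductase subunit lay in the opposite direction at 72 h, with Rrm1 at 77.6 against 89.4 CPM (log2 ratio -0.20). Of the helicase ring genes Mcm3 to Mcm7 had lower levels with MDSCs, none past 1.5-fold, with Mcm5 at 81.2 against 109 CPM (log2 ratio -0.42). Mcm2 was level, with a log2 ratio of -0.014 that became 0.026 from the mean natural log value and 0.037 with the reduced total. Mki67 was above 0 in 59.8% of the 72 h cells with MDSCs and 66.9% without. In Mki67-positive cells 2 members were lower (Prim2 and Pole2) and 0 higher of 41, against 14.3% and 7.87% of all genes. In cells at 0 for Mki67 1 was lower (Prim2) and 2 higher (Rfc3 and Rrm2) of 39, against 15.2% and 12.6%. Whether the strata differ was not tested.

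**Figure D5:**
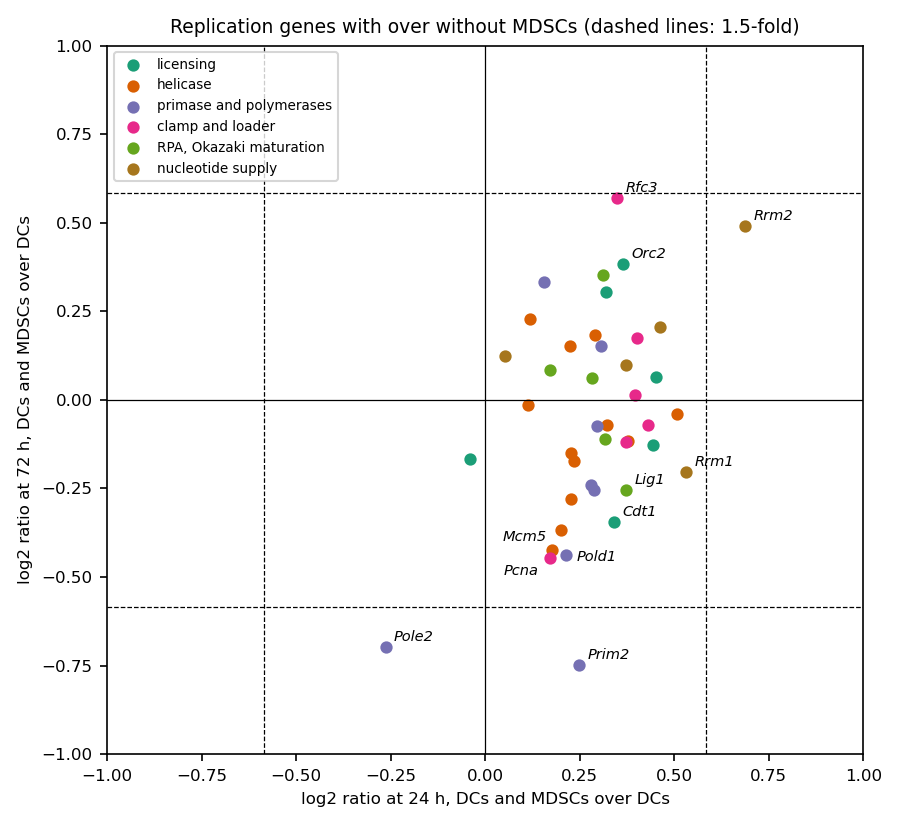
Log2 ratio with over without MDSCs at 24 h (x axis) and at 72 h (y axis), 1 point per member coloured by role, with dashed lines at 1.5-fold. 40 of 42 points lie right of 0, Rrm2 alone passes the line at 24 h, and Prim2 and Pole2 alone pass it at 72 h.

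Cdt1 and its inhibitor geminin can be compared within cells. Cdt1 measured 12.6 CPM at 0 h, 51.5 (DC) and 65.2 (MDSC) at 24 h, and 59.0 (DC) and 46.4 (MDSC) at 72 h. Among the 24 h cells with DCs, 48.5% had both transcripts above 0, 31.9% Gmnn alone, 7.49% Cdt1 alone (exact 95% interval 6.23 to 8.91%) and 12.1% neither (10.5 to 13.8%). With MDSCs the shares were 58.6%, 35.2%, 3.25% (2.56 to 4.07%) and 2.94% (2.28 to 3.72%). Cells with Cdt1 alone and cells with neither were thus each less frequent with MDSCs at 24 h. At 72 h the share with Cdt1 alone was 3.79% without and 3.42% with MDSCs, that with Gmnn alone 39.6% and 44.2%, and that with neither 7.53% and 9.33%. If the 2 genes were found independently, both would have been above 0 in 45.0% and 58.0% of the 24 h cells and 46.9% and 40.6% of the 72 h cells, without and with MDSCs. The observed shares at 72 h were 49.1% and 43.1%, so the transcripts of the factor and its inhibitor were found together slightly more often than that. At 0 h both were above 0 in 7.76% of the cells, against 7.98% if found independently. No other pair of genes is given beside this, and the part of differences in detection among cells was not tested. No cells that lack these genes were among the libraries, so the share that free RNA could give was not tested.

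Across the cells of a library the median pair of members varied together only weakly. Pearson's r between the natural log values of 2 members had a median over all 861 pairs of 0.20 at 24 h with DCs (1562 cells), 0.096 with MDSCs, and 0.14 and 0.10 at 72 h. At 0 h the median was 0.030 and the largest r was 0.79, between Rrm1 and Tyms. That r rests on the 0 h values described above. Rrm1 had an adjusted count of 1 in 36.4% of those cells and of 2 or more in 2.78%, and Tyms in 35.6% and 2.57%. The cells share a library and an adjusted total, so these are descriptions. No r of other genes is given beside them, and the part of low counts was not tested. Nucleotide supply genes had the largest median r of any role in all 4 co-culture libraries, from 0.21 to 0.44, and at 24 h with DCs the largest r of a single pair was 0.58, between Rrm2 and Tyms.

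Other replication genes were, like the members, mostly higher after stimulation. Of 31 further genes of origin firing, fork progression and chromatin assembly, 27 higher and 1 lower of 30 at 10 CPM or more passed 1.5-fold at 24 h with DCs against 0 h (median log2 ratio 2.24), beside 55% of all genes higher and 15.4% lower. Chaf1a, a subunit of the histone chaperone CAF-1, was at 56.2 against 0.726 CPM, and the fork protein Clspn at 39.1 against 1.98. Pold4, the smallest subunit of polymerase delta, had the opposite course: it measured 113 CPM at 0 h, 23.6 (DC) and 25.3 (MDSC) at 24 h, and 166 (DC) and 183 (MDSC) at 72 h. From 24 h to 72 h this list had 2 higher and 6 lower of 30 without MDSCs and 1 higher and 18 lower of 31 with them, beside 23.1% and 34.8% of all genes higher and lower without MDSCs and 16.9% and 42% with them. With against without MDSCs it had 2 higher and 0 lower of 31 at 24 h, the higher ones being Asf1b (59.6 against 34.8 CPM) and Clspn (60.8 against 39.1), and 1 higher and 4 lower of 28 at 72 h; of all genes 2.14% and 1.14% were higher and lower at 24 h and 8.3% and 14.8% at 72 h.

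A further 22 genes of nucleotide synthesis included the enzymes of folate, pyrimidine and purine metabolism. At 24 h with DCs against 0 h 17 higher and 1 lower of 21 passed 1.5-fold (all genes: 55% and 15.4%), with Shmt1, a folate cycle enzyme, at 121 against 4.06 CPM. At 72 h against 24 h there were 3 higher and 15 lower of 21 without MDSCs (all genes: 23.1% and 34.8%) and 1 higher and 15 lower of 21 with them (all genes: 16.9% and 42%), and Shmt1 was at 16.9 and 23.7 CPM at 72 h. At 72 h with against without MDSCs 5 higher and 2 lower of 21 passed (all genes: 8.3% and 14.8%), and 2 higher and 0 lower of 21 did at 24 h (all genes: 2.14% and 1.14%). The deoxycytidylate deaminase gene Dctd was at 31.4 against 10.4 CPM and Gart, of purine synthesis, at 58.5 against 33.0. Samhd1, whose product degrades deoxynucleotides, was lower, at 89.0 against 184, and measured 95.6 at 0 h and 35.1 (DC) and 26.2 (MDSC) at 24 h.

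Of 14 E2F factors, RB family members and G1/S cyclins, 8 higher and 0 lower of 8 passed 1.5-fold at 24 h with DCs against 0 h (all genes: 55% and 15.4%), with E2f1 at 57.7 against 1.57 CPM and the cyclin Ccne2 at 21.6 against 0.363. At 72 h against 24 h there were 6 higher and 5 lower of 12 without MDSCs (all genes: 23.1% and 34.8%) and 2 higher and 7 lower of 12 with them (all genes: 16.9% and 42%), with Rb1 higher in both (23.7 against 6.95 and 25.4 against 6.41 CPM). With against without MDSCs there were 3 higher and 0 lower of 10 at 24 h (all genes: 2.14% and 1.14%), with cyclin A2 (Ccna2) at 109 against 56.7 CPM, and 0 higher and 4 lower of 11 at 72 h (all genes: 8.3% and 14.8%), with E2f1 at 20.7 against 38.2 and E2f2 at 15.9 against 26.3. Of the 16 mitosis genes 15 higher and 0 lower of 15 passed with against without MDSCs at 24 h (median log2 ratio 1.22), where the shares of all genes are those just given, for example Mki67 at 55.1 against 19.1 CPM and Cdca3 at 57.2 against 20.2. At 72 h 0 higher and 1 lower of 16 passed (Bub1, at 17.4 against 27.4 CPM). At 24 h with DCs against 0 h 8 higher and 2 lower of 12 passed.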

How the data were processed

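Droplet (10x Genomics) libraries came from flow-sorted cells, per the labels' protocols. The submitters' processing notes list Cell Ranger 2.0.1, Seurat and mm10, without saying what each did. The authors deposited natural log values whose exponential is 1 plus a whole number (0 values lay farther than 1e-06 from whole). The step that adjusted these numbers is unknown; because each cell sums to nearly the same total (coefficient of variation 4.95%), they are not molecules, and no count model, thinning or doublet caller was applied. Cells were placed in libraries by the deposited annotation, summed per gene and scaled to 1000000. Calls need 10 CPM and 1.5-fold over the whole table; shares carry exact (Clopper-Pearson) 95% limits for counting error. No p-value was computed.

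Alternatives were the mean natural log value, a total without ribosomal protein and mitochondrial genes, centring on the median ratio, minimums of 2 and 50 CPM, leaving out members of variance over mean below 0.5 at 0 h, the separately adjusted 24 h and 72 h tables, and shares at 2 or more adjusted counts. Members and lists were chosen with earlier results of these data known. Named members were, per role, the 2 of highest summed level and the largest called ratio each way in the comparisons; list genes were among the 2 largest each way at 20 CPM. Cdc6, Cdt1, Cdc45, Pole2, Mcm5, Rrm1, Tyms, the Rpa, Mcm and Gins genes given by ratio alone, Samhd1 at other times and the marker levels were added after their values were seen. The ratio and call step was tested on simulated data. Python 3.11.15, numpy 2.4.6, scipy 1.17.1 and matplotlib 3.10.9 were used.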

Additional observations from a re-analysis of the deposited data

Results flagged for a closer look

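For 7 members the log2 ratio with over without MDSCs was above 0 at 24 h and below 0 at 72 h, with the ratios at least 1.5-fold apart. They were Cdt1 (0.34 at 24 h and -0.35 at 72 h, a difference of -0.69), Mcm5 (0.18 at 24 h and -0.42 at 72 h, a difference of -0.60), Prim2 (0.25 at 24 h and -0.75 at 72 h, a difference of -0.996), Pold1 (0.21 at 24 h and -0.44 at 72 h, a difference of -0.65), Pcna (0.17 at 24 h and -0.45 at 72 h, a difference of -0.62), Lig1 (0.37 at 24 h and -0.26 at 72 h, a difference of -0.63) and Rrm1 (0.53 at 24 h and -0.20 at 72 h, a difference of -0.74). Each ratio compares 2 libraries and the difference between the times was not tested. The directions of all 7 were the same from the mean natural log value, with the reduced total, and in the separately adjusted 24 h and 72 h tables. The same change of side by 1.5-fold or more was found in 15.1% of all 7487 genes that reached 10 CPM in any co-culture library, so 7 of 42 is near that share. Prim2 differed most, and it was the single one past 1.5-fold at either time. In all, 22 of 42 members were above 0 at 24 h and below 0 at 72 h, as were 36.2% of those genes.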

How the results depend on the processing

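Of the counts and medians recomputed under the alternatives, 70 stayed close to the reported value (counts within 1.5 times, median ratios within 1.5-fold) and 14 did not. Centring on the median of all genes gave 23 higher and 3 lower members at 24 h with DCs against 0 h (median 0.82), 2 higher and 8 lower at 72 h against 24 h without MDSCs, 1 higher and 14 lower with them, and 1 higher at 72 h with against without MDSCs, where the median of -0.056 changed sign to 0.016. It took the medians of 72 h against 24 h from -0.30 to -0.067 without MDSCs and from -0.69 to -0.28 with them. The mean natural log value gave 1 higher member at 72 h against 24 h without MDSCs (Lig1), 4 higher with MDSCs at 24 h (Rrm2, Rrm1, Gmnn and Tyms) and 1 at 72 h (Rfc3). The total without ribosomal protein and mitochondrial genes, which moved the median of all genes to 0.54 from 0.73 for 24 h against 0 h, to -0.22 from -0.41 for 72 h against 24 h with MDSCs and to -0.035 from 0.093 for MDSCs at 24 h, gave 0 higher members with MDSCs at 24 h (median 0.19 in place of 0.30) and 1 at 72 h. At a minimum of 50 CPM 0 members were lower with MDSCs at 72 h, since Prim2 and Pole2 were not tested. A share of cells at 2 or more adjusted counts is a part of the share above 0, so it could not be higher. All 24 recomputed shares were outside the interval of the share above 0. At that setting Rrm2 at 24 h was at 64.0% with MDSCs and 38.7% without, and Prim2 at 72 h at 3.04% and 7.53%. Gmnn at 72 h changed side, from 87.3% and 88.7% above 0 to 70.2% and 69.2%. The cause of these changes was otherwise not tested. No paired analysis was possible because each group is a single library. The unknown depth limits every share of cells.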

Other observations

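Cells with 10 or fewer of the 42 members above 0 were still T cells by their markers. At 24 h with DCs the 88 such cells had the 9 T cell markers at a summed 2198 CPM, against 2443 in the other 1474. Gzmb, granzyme B, was above 0 in 53.4% of them against 65.0%, Mki67 in 1.14% against 20.1%, and Klf2, a factor of T cell quiescence, in 15.9% against 10.8%. They had a median of 2864 genes above 0 against 3609, and ribosomal protein genes took 48.1% of their adjusted counts against 38.2%. At 72 h Gzmb was above 0 in 99.5% of the 185 such cells without MDSCs and in 99.7% of the 330 with them, at 787 and 3036 CPM, against 1897 and 2561 in the cells with more members. At 72 h cells with few members thus had less Gzmb than the others without MDSCs and more with them. At 24 h with MDSCs the 6 such cells had less, at 867 against 1990 CPM. At 72 h Klf2 was at 175 and 32.4 CPM in the cells with few members without and with MDSCs, and at 136 and 22.1 in the others. Il7r had no common direction. At 72 h it was above 0 in 30.3% of the cells with few members against 37.45% of the others without MDSCs. With MDSCs the shares were 62.1% and 54.6%, and at 24 h with DCs 14.8% and 11.5%. These genes and the limit of 10 were chosen after the values were seen, and the cells were picked by the members' own values, so the figures are descriptions.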
